A study of Mus musculus with 4 samples.

Results

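The droplet barcodes described here are those with at least 1000 unique molecular identifiers (UMIs, each standing for 1 captured RNA molecule) of which 10% or more fell in the 13 protein-coding genes of the mitochondrial genome, whose symbols start with mt-. They numbered 1957 of the 12305 barcodes that reached 1000 UMIs, and are called high-mitochondrial barcodes. The other 10348 barcodes with at least 1000 UMIs, all under 10%, are called low-mitochondrial barcodes. Each of the 4 libraries held CD8+ T cells grown from the spleens of gBT-I.CD45.1 transgenic mice, whose T cells carry a single T cell receptor specific for a herpes simplex virus peptide. Splenocytes were activated with B6 splenocytes pulsed with that peptide and with LPS, and were kept in IL-2. Control cultures received PBS, and butyrate cultures received 0.5 mM sodium butyrate between day 3 and day 5. Flow cytometry on day 6 kept living CD8+Vα2+ cells, at a stated purity above 98%, for droplet capture. Each of 2 mice gave 1 control and 1 butyrate culture, so replicate 1 of both groups came from one mouse and replicate 2 from the other. All libraries are of in vitro cells with 1 receptor, and none of the comparisons covers more than these 2 mice.

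Mitochondrial transcripts are made and kept inside the organelle, behind its own membranes, whereas most nuclear-encoded mRNA lies in the cytosol. Nuclear-encoded subunits of the respiratory chain and of the mitochondrial ribosome are translated in the cytosol and imported. A high mitochondrial share is widely used in single-cell work to set aside barcodes of stressed, dying or leaking cells. Some RNAs, such as Malat1 and Neat1, stay in the nucleus.

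The libraries held 64388093 and 74891790 UMIs in the control group and 76522004 and 74844548 in the butyrate group. No barcode was high-mitochondrial in more than 1 library, and between 1 and 6 barcodes with at least 1000 UMIs were shared by any 2 libraries. Control replicate 1 stood apart in holding 31368 barcodes of over 100 and under 1000 UMIs, against 3797 to 7615 in the other libraries. Barcodes of 1 to 100 UMIs, taken as a measure of free RNA, had 2.75% to 5.21% mitochondrial UMIs, below the limit of 10% in every library.

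High-mitochondrial barcodes were shallow: they held about as many mitochondrial UMIs as the other barcodes and far fewer UMIs of other genes. The barcodes were chosen by these values, total UMIs and mitochondrial share, so they are given as a description, with no test. Their median depth was 4642 and 5397 UMIs in control replicates 1 and 2, and 4036 and 4597 UMIs in butyrate replicates 1 and 2. Low-mitochondrial barcodes had medians of 20624, 19732, 24238 and 23337 UMIs in the same order. The median number of mitochondrial UMIs per barcode was 974, 1005, 932 and 917 in high-mitochondrial barcodes and 1048, 1020, 951 and 963 in low-mitochondrial barcodes. The mitochondrial medians of the 2 classes were thus close in each library, while UMIs outside the mt- genes had medians of 3475, 4545, 2989 and 3902 against 19512, 18530, 23352 and 22278.

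**Figure D1:**
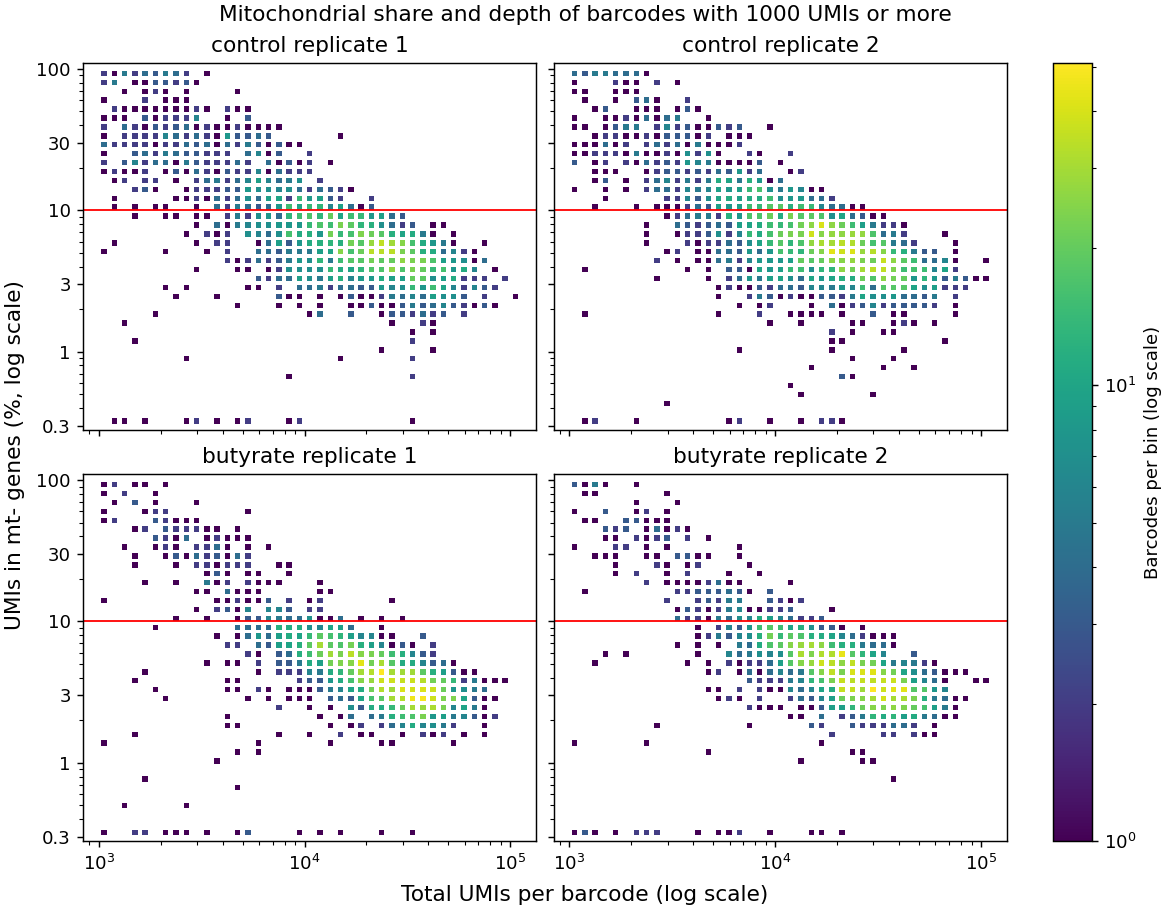
Total UMIs per barcode (log scale) against the percent of UMIs in mt- genes (log scale) for barcodes with at least 1000 UMIs, 1 panel per library, with colour giving the number of barcodes per bin. The red line is the limit of 10%, the lowest row also holds barcodes under 0.3%, and the 1957 barcodes on or above the line form a band in which shares are higher at lower total UMIs.

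The limit cuts a continuous band. Just inside it, from 10% to under 11%, lay 69, 103, 34 and 55 barcodes in control 1, control 2, butyrate 1 and butyrate 2. Just outside it, from 9% to under 10%, lay 135, 134, 49 and 65 barcodes. Barcodes from 10% to under 20% made up 50.4%, 64.2%, 47.1% and 60.3% of the high-mitochondrial barcodes, with median depths of 6487 to 7341 UMIs. Those from 20% to under 40% made up 33.2%, 23.0%, 31.5% and 18.3%, with medians of 2888 to 3571 UMIs. Those from 40% to under 80% made up 10.4%, 8.41%, 18.1% and 16.8%, with medians of 2058 to 2364 UMIs. At 80% or more there were only 41, 34, 8 and 12 barcodes, which held medians of 157, 107, 103 and 77 UMIs outside the mt- genes.

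The share of barcodes that were high-mitochondrial was lower in both butyrate libraries than in both control libraries. It was 684 of 2879 barcodes (23.8%, exact 95% binomial interval 22.2% to 25.4%) in control 1 and 773 of 3555 (21.7%, 20.4% to 23.1%) in control 2. It was 238 of 2884 (8.25%, 7.27% to 9.32%) in butyrate 1 and 262 of 2987 (8.77%, 7.78% to 9.84%) in butyrate 2. The group means were 22.8% ± 1.42 (SD, n = 2) and 8.51% ± 0.367 (SD, n = 2), a difference of -14.2 percentage points with no overlap between groups. The two-sided exact permutation test gave p = 0.333, the smallest p that 2 against 2 libraries can give. All intervals cover counting error only. Without control 1, the library that stood apart, the difference was -13.2 points. Within the low-mitochondrial barcodes the median mitochondrial percent was lower in both butyrate libraries. It was 4.97% and 4.99% in control 1 and 2 and 3.94% and 4.14% in butyrate 1 and 2. Within the high-mitochondrial barcodes the medians were 19.7% and 15.4% in control 1 and 2 and 21.7% and 16.0% in butyrate 1 and 2. There the butyrate median was the higher one in each replicate.

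Depth moved with the share of high-mitochondrial barcodes, so that share was also taken within ranges of total UMIs. Among barcodes of 1000 to under 3000 UMIs the share was 92.4% ± 1.87 in control and 81.1% ± 0.282 in butyrate (SD, n = 2 each). From 3000 to under 6000 UMIs the means were 70.0% ± 0.577 and 67.1% ± 4.30 (SD, n = 2 each), the groups overlapped, and the two-sided exact permutation p was 0.667. Without butyrate replicate 1 the difference in this range was 0.188 points in the other direction. From 6000 to under 12000 UMIs the share was 35.5% and 33.0% in the control libraries and 16.7% and 20.5% in the butyrate libraries. At 12000 UMIs or more it was 2.18% and 3.56% against 0.395% and 0.427%. Outside the range of 3000 to under 6000 UMIs the groups did not overlap, with p = 0.333 by the exact permutation test in each range. Among barcodes past the OrdMag limit, which keeps barcodes with at least 10% of the UMIs of the 99th percentile of the top 3000, 9.81% ± 0.385 of control and 2.87% ± 0.662 of butyrate barcodes were high-mitochondrial (SD, n = 2 each).

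**Figure D2:**
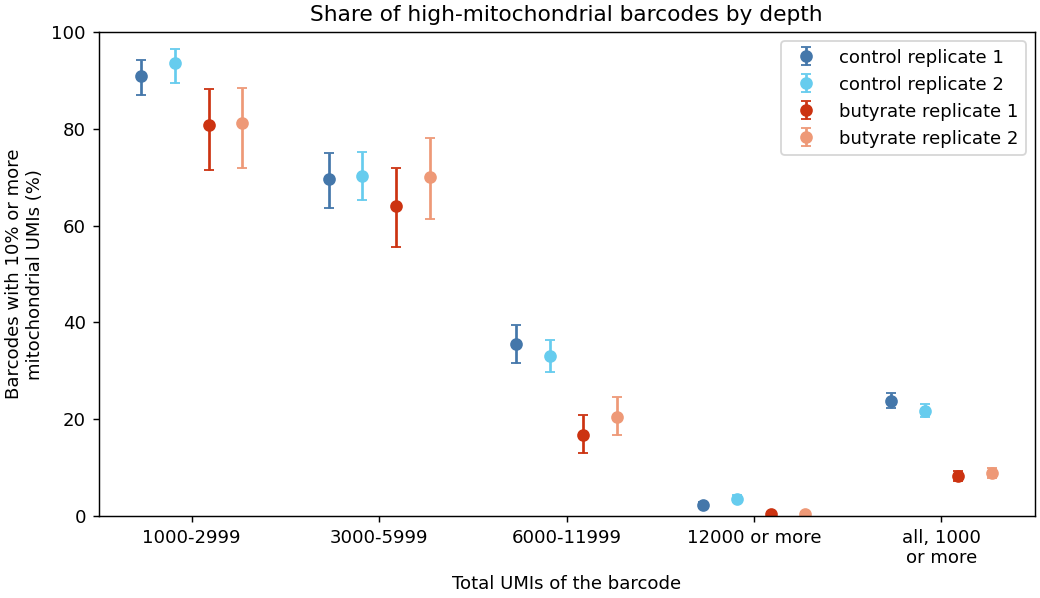
Percent of barcodes with at least 10% mitochondrial UMIs, by total UMIs of the barcode, for each library (points) with exact 95% binomial intervals (bars). Butyrate points lie below control points in all ranges but 3000 to under 6000 UMIs, where butyrate replicate 2 (70.2%) lies between the control libraries (69.6% and 70.4%).

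The RNA outside the mt- genes differed between ranges of the mitochondrial share. These shares are given without a test. Cytosolic ribosomal protein genes, which build the translation machinery, supplied 31.1% to 33.0% of these UMIs in low-mitochondrial barcodes over the 4 libraries. They supplied 28.7% to 32.2% in barcodes of 10% to under 20%, 14.0% to 18.3% in barcodes of 20% to under 40% and 11.9% to 13.9% in barcodes of 40% to under 80%. A list of 11 RNAs held in the nucleus (Malat1, Neat1, Xist and others) went the other way. Its share was 0.637% to 0.801% in low-mitochondrial barcodes, 1.49% to 2.47% from 10%, 4.43% to 6.93% from 20% and 6.40% to 10.5% from 40% to under 80%. Barcodes of 80% or more departed from this trend, with 25.9% to 34.2% ribosomal and 0.427% to 2.38% nuclear RNA. Free RNA held 34.0% to 35.7% and 0.414% to 0.589%. These profiles from 80% rest on few UMIs, 7645, 4601, 1009 and 937 in control 1, control 2, butyrate 1 and butyrate 2.

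**Figure D3:**
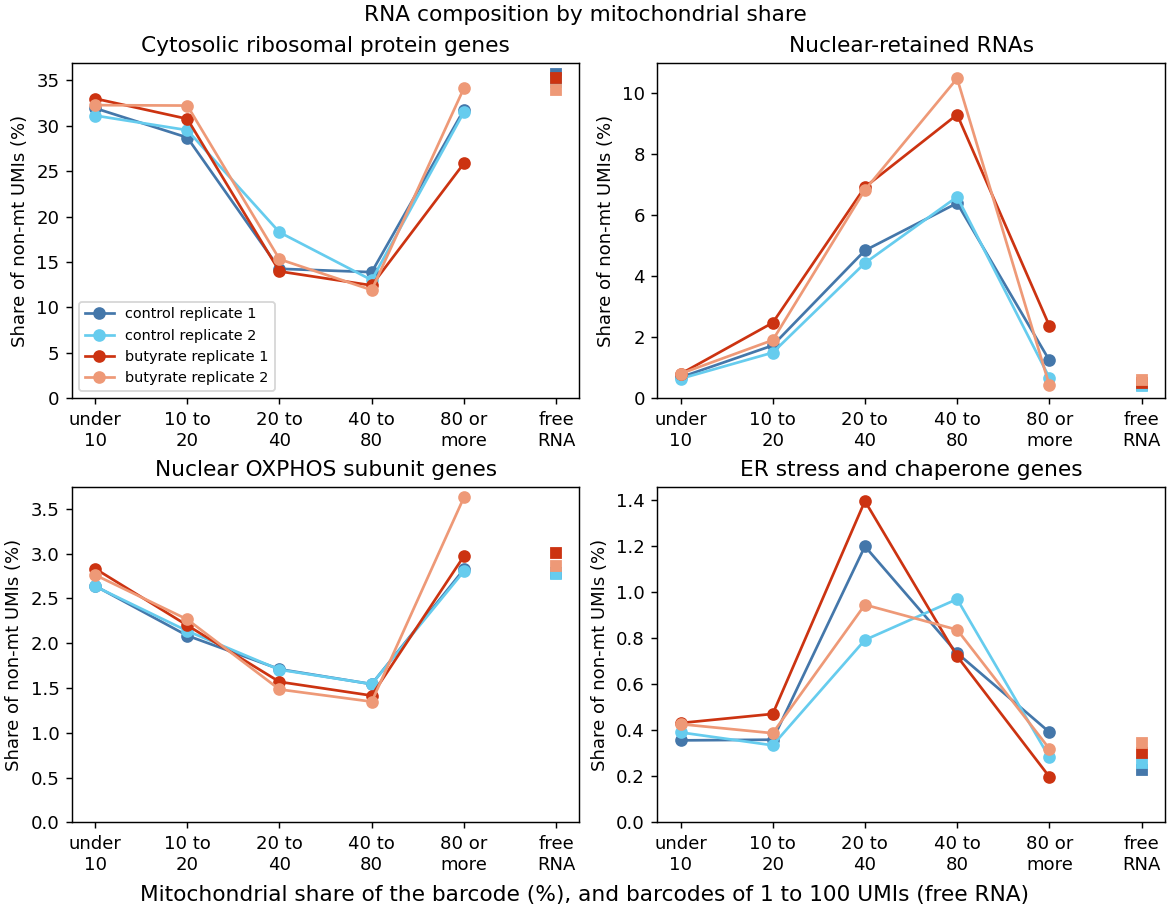
Share of UMIs outside the mt- genes held by 4 gene lists, for low-mitochondrial barcodes, 4 ranges of mitochondrial share and free RNA (barcodes of 1 to 100 UMIs), with 1 line per library. From 10% to under 80% the ribosomal share is lower and the nuclear RNA share higher in each range than in the one before in all 4 libraries, at 11.9% to 13.9% and 6.40% to 10.5% from 40%.

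Single barcodes showed the same split. Only barcodes with at least 500 UMIs outside the mt- genes entered, which were 634, 733, 222 and 248 high-mitochondrial barcodes. Ribosomal protein genes made up under 20% of these UMIs in 46.4%, 27.6%, 48.6% and 33.9% of high-mitochondrial barcodes of control 1, control 2, butyrate 1 and butyrate 2. In low-mitochondrial barcodes this held for 0.501%, 0.539%, 0.378% and 0.257%. Within 10% to under 20% mitochondrial UMIs it held for 16.2%, 7.06%, 11.6% and 6.33% of barcodes, and within 20% to under 40% for 80.6%, 62.4%, 82.7% and 70.8%. The fraction of ribosome-poor barcodes was higher in replicate 1 than in replicate 2 of both groups. The limit of 20% was chosen after the distribution was seen.

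The profile of the high-mitochondrial barcodes was then compared with that of the low-mitochondrial barcodes of the same library. UMIs outside the mt- genes were summed per library and class and tested with edgeR, with the library as a block. Of 13239 genes tested, 3144 were higher (23.7%) and 3601 were lower (27.2%) in high-mitochondrial barcodes at a Benjamini-Hochberg adjusted p under 0.05. In all, 50.9% of tested genes were called. Fold changes are log2 values with a standard error (SE), and levels are normalised counts (CPM) scaled by TMM. Scaling by library totals in place of TMM moved the median over all genes from 0.05 to 0.58 and the calls to 6978 higher (52.7%) and 1455 lower, 63.7% of genes in all, so directions below are relative to the typical gene. Leaving out a library left 2417 to 2954 genes higher and 3122 to 3414 lower.

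The largest rise by the naming rule was that of Lars2, the mitochondrial leucyl-tRNA synthetase (chromosome 9, 123366927 to 123462666, GRCm38). Its CPM was 292, 288, 226 and 170.4 in the high-mitochondrial barcodes of control 1, control 2, butyrate 1 and butyrate 2, and 129, 93.2, 57.4 and 43.2 in the low-mitochondrial ones. The classes did not overlap, and the difference was 1.66 (SE 0.10, edgeR adjusted p = 8.106e-29). None of its annotated transcripts shared a run of 30 bases with an annotated mitochondrial transcript. In CPM without TMM scaling, free RNA held 266, 207, 125 and 90.1 of Lars2, and barcodes of 40% to under 80% held 590, 488, 822 and 350. Non-coding transcripts were prominent among the next rises. Lncpint, a long non-coding RNA, stood at 26.9, 19.2, 51.6 and 44.4 CPM against 8.84, 8.77, 11.9 and 11.8 CPM, and Mir142hg, the host transcript of a haematopoietic microRNA, at 77.6, 58.1, 70.0 and 45.1 CPM against 28.1, 24.7, 18.9 and 14.5 CPM. The log2 differences were 1.65 for Lncpint and 1.51 for Mir142hg. Xist, which silences an X chromosome, reached 2796 to 3354 CPM against 1009 to 1301 CPM, a difference of 1.40 (SE 0.11, edgeR adjusted p = 3.65e-27). The remaining members of the 10 largest rises were BE692007 (1.54), the sphingomyelin synthase Sgms1 (1.45), the chemokine receptor Cxcr4 (1.45, edgeR adjusted p = 0.0372), the transcription factors Ikzf2 (1.37) and Zbtb20 (1.36), and the snoRNA host Snhg20 (1.34).

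The largest falls were of genes with roles in many cell types. Erh, a small nuclear protein of RNA processing (chromosome 12), stood at 20.2, 23.2, 15.8 and 19.4 CPM in high-mitochondrial and 104, 117, 126 and 137 CPM in low-mitochondrial barcodes. The log2 difference was -2.52 (SE 0.12, edgeR adjusted p = 4.939e-46), and every high-mitochondrial sum lay below every low-mitochondrial one. Psmb2, a proteasome subunit, differed by -2.25, Sumo2, a ubiquitin-like modifier, by -2.18, and Btf3, which binds nascent polypeptides, by -2.16. Uqcrb of respiratory complex III differed by -2.12, Mrps14 of the mitochondrial ribosome by -2.07 and Txn1, a thioredoxin, by -2.06. Gng10, a G protein subunit, differed by -2.09, Uchl3, a deubiquitinase, by -2.07 and Sec61b of the protein channel of the endoplasmic reticulum (ER) by -2.06. The rule for naming asked for the same direction in all 4 libraries.

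Higher and lower genes differed in length. The median exonic length in GENCODE M21 was 6077 bases for higher genes, 3003 bases for lower genes and 4122 bases for all genes tested. In the shortest 20% of genes, of 165 to 2140 bases, 11.1% were higher and 41.0% lower. In the longest 20%, from 7182 bases, 47.0% were higher and 9.07% lower. The 737 genes at least 1 log2 unit higher were not longer, with a median exonic length of 3815 bases, below that of all genes tested. Of these, 40.8% were annotated as long intergenic, antisense or other long non-coding or unconfirmed transcripts, against 10.3% of all genes tested. Whether the counts include intronic UMIs is not given in the sources used here.

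Nuclear-encoded genes of mitochondrial function were mostly lower in the high-mitochondrial barcodes, which were chosen for their larger share of mitochondrially encoded transcripts. Of 75 tested subunits of oxidative phosphorylation encoded in the nucleus, 71 were lower and 0 higher (median log2 -0.996, all genes 0.05). All 78 tested genes of the mitochondrial ribosome were lower (median -0.98). Cox5a, a subunit of cytochrome c oxidase, stood at 248, 273, 352 and 365 CPM in high-mitochondrial and 833, 888, 1473 and 1519 CPM in low-mitochondrial barcodes, with no overlap (log2 -1.89, SE 0.11, edgeR adjusted p = 1.418e-39). Genes that replicate and transcribe mitochondrial DNA showed 2 higher and 13 lower of 28 (median -0.39), and genes of mitochondrial quality control 1 higher and 21 lower of 31 (median -0.49). The latter 2 lists had medians of 0.14 and 0.06 under library totals, below the shift of 0.58 of all genes.

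The cytosolic ribosome fell and nuclear RNAs rose in all 4 libraries. Of 84 ribosomal protein genes tested, 80 were lower and 0 higher (median -0.83). Rpl10 stood at 534 to 760.3 CPM against 1810 to 2004 CPM, a difference of -1.56. Of 10 tested nuclear-retained RNAs, 9 were higher and 0 lower (median 1.09). Malat1 stood at 15310, 12410, 27560 and 21350 CPM in high-mitochondrial barcodes and at 6128, 5576, 9147 and 9167 CPM in low-mitochondrial barcodes. The classes did not overlap, and the difference was 1.32 (SE 0.11, edgeR adjusted p = 5.88e-23). Neat1, which scaffolds paraspeckles, differed by 1.20 and Kcnq1ot1, an imprinted nuclear RNA, by 1.00. Cytoskeletal genes showed 1 higher and 22 lower of 28 (median -0.66). Tmsb4x, which binds actin monomers, differed by -1.57 and Actb, the cytoplasmic actin, by -0.70.

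Transcripts of CD8+ T cells were present in the high-mitochondrial barcodes, at shares of UMIs near or above those of free RNA. The 16 T cell identity genes summed to 1.45%, 1.16%, 1.46% and 1.17% of UMIs in high-mitochondrial barcodes, 1.09%, 1.13%, 1.19% and 1.25% in low-mitochondrial barcodes and 1.05%, 1.08%, 1.05% and 1.20% in free RNA. By range of mitochondrial share, they summed to 1.05% to 1.18% from 10% to under 20%. From 20% to under 40% the sums were 2.43%, 1.84%, 2.60% and 1.78%, and from 40% to under 80% they were 1.10% to 1.70%. Free RNA held these transcripts too, so their detection alone does not tell a cell's own RNA from free RNA. After thinning each barcode to 500 UMIs outside the mt- genes, at least 1 of the CD3 chain genes Cd3d, Cd3e and Cd3g was detected in 76.0%, 72.0%, 59.0% and 56.5% of high-mitochondrial and 68.5%, 70.0%, 58.5% and 60.0% of low-mitochondrial barcodes. Cd8a or Cd8b1 was detected in 27.9%, 19.2%, 22.5% and 23.0% against 18.6%, 15.5%, 14.7% and 16.0%. Without thinning, at the unequal depths given above, Cd8a or Cd8b1 was found in 73.0%, 67.7%, 67.2% and 64.1% of high-mitochondrial barcodes, against 94.6%, 93.8%, 94.5% and 95.1%. Markers of other cells were rare. At 500 UMIs, Cd79a of B cells was detected in 0% to 0.158% of high-mitochondrial barcodes, Cd4 in 0% to 0.403%, and Lyz2 of myeloid cells and haemoglobin beta in none. A count of 0 of 222 barcodes in the smallest library allows up to 1.35% of barcodes with such a UMI at this depth (3 counts of the total), which is no limit on cells of these types. B cell markers summed to 0.00915% to 0.0209% of UMIs against 0.00622% to 0.0166% in low-mitochondrial barcodes, with 5 to 7 of 13 genes at 0. Myeloid markers summed to 0.0224% to 0.0601% against 0.0301% to 0.0793%, with 7 of 15 at 0. Markers of CD4 and regulatory T cells were higher, at 0.0408%, 0.0343%, 0.0669% and 0.0422% against 0.0139%, 0.0133%, 0.0179% and 0.0200%, with 1 or 2 of 8 genes at 0. Of the 7 tested, 4 were higher (Ikzf2, Ctla4, Tnfrsf4 and Zbtb7b) and 0 lower (median 0.56), and Cd4 itself did not pass. From 6000 to under 12000 UMIs 0 were higher and 1 lower of 5. In low-mitochondrial barcodes of 1000 to under 6000 UMIs these markers summed to 0.0425%, 0.0367%, 0.0345% and 0.0509%. Whether CD4 or regulatory T cells were present, or had a part in the class difference, was not tested.

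Cd8a (0.10, edgeR adjusted p = 0.4063) and Cd8b1 (-0.10, edgeR adjusted p = 0.4174) did not pass the test between classes, and B2m, the light chain of class I molecules, fell by 0.28 (edgeR adjusted p = 0.01708). B2m turned to 0.27 under library totals. Of 16 T cell identity genes 1 was higher and 6 lower (median -0.15), which under library totals became 12 higher and 0 lower. Among 29 effector genes 3 were higher and 19 lower (median -0.74), among the latter Gzmb, the cytotoxic protease granzyme B. Under library totals 6 were higher and 8 lower (median -0.21). Gzmb stood at 1835, 1234, 6997 and 4014 CPM against 3284, 3411, 12540 and 12640 CPM, lower in each of the 4 libraries (-1.20, SE 0.11, edgeR adjusted p = 3.057e-17). Prf1, the pore-forming perforin, differed by -0.40. Among 21 memory and stem-like genes 11 were higher and 3 lower (median 0.55). Il7r, the receptor for the survival cytokine IL-7, stood at 108 to 151 CPM against 59.4 to 71.8 CPM (0.99, SE 0.10, edgeR adjusted p = 6.929e-18). Tcf7, a transcription factor of memory and stem-like cells, did not pass (0.14, edgeR adjusted p = 0.3765).

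The p53, BCL2 family and death gene lists had calls in both directions, whereas heat shock, NRF2 and ATF4 genes were mostly lower or not called. Of 20 tested p53 targets 4 were higher and 8 lower (median -0.05), of 15 BCL2 family genes 4 and 7 (median -0.18), and of 31 caspase and death genes 4 and 12 (median -0.04). Bcl2, which opposes apoptosis, was higher by 0.86 (edgeR adjusted p = 3.558e-14) and Bax, which permeabilises the mitochondrial outer membrane, was lower by -1.56 (edgeR adjusted p = 1.075e-31). Pmaip1, a pro-apoptotic BH3-only gene, was higher by 0.43 (edgeR adjusted p = 0.01113), and Bbc3, of the same kind, was at -0.00146 (edgeR adjusted p = 0.9946). Cdkn1a, the p21 inhibitor of the cell cycle, fell by 0.51 and Rps27l, a p53 target coding for a ribosomal protein, by 1.97. Heat shock genes showed 0 higher and 12 lower of 18 (median -0.73), with Hsp90aa1 at -0.76 and the mitochondrial chaperonin subunit Hspe1 at -1.64. Hspa1a, the inducible HSP70, had 0 UMIs in the high-mitochondrial barcodes of every library and 7 to 41 UMIs in the far larger low-mitochondrial sums, too few to compare. Antioxidant genes of the NRF2 list showed 1 higher and 17 lower of 25 (median -0.84), and genes of the ATF4 response 2 and 14 of 27 (median -0.29). Immediate early genes, transcribed first after a stimulus, had 13 higher and 1 lower of 26 (median 0.41). Under library totals the medians of the p53, BCL2 family, caspase and ATF4 lists turned to 0.49, 0.35, 0.48 and 0.24, all below the shift of all genes, while heat shock (-0.19) and NRF2 (-0.30) did not turn. Ddit3 is paired with more than 1 gene ID and is not reported.

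The classes differ in depth, and part of the profile turned around when barcodes of like depth were compared. Depth here is total UMIs with the mt- genes included. At a given total, high-mitochondrial barcodes therefore held fewer UMIs of the genes tested, and depth outside the mt- genes was not matched. Barcodes of 6000 to under 12000 UMIs left 10208 genes tested, with 1219 higher (11.9%) and 1637 lower (16.0%). Barcodes of 3000 to under 6000 UMIs left 5830 genes, with 584 higher (10.0%) and 752 lower (12.9%). Both ranges were chosen after seeing the data. Of the genes called in the full comparison and from 6000 to under 12000 UMIs, 1858 kept their sign and 273 changed it. The median over all genes stayed at 0.02 and 0.03 in these ranges.

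Several lists kept their direction at like depth. From 6000 to under 12000 UMIs, 75 of 83 cytosolic ribosomal genes were lower and 0 higher (median -0.63), 8 of 10 nuclear-retained RNAs higher and 0 lower (median 0.70), 42 of 75 nuclear OXPHOS genes lower and 1 higher (median -0.28), and 32 of 78 mitochondrial ribosomal genes lower and 1 higher (median -0.26). From 3000 to under 6000 UMIs the medians were -0.88, 0.75, -0.49 and -0.45. NRF2 genes (1 higher and 11 lower of 23), cytoskeletal genes (4 and 14 of 28) and glycolysis and hypoxia genes (2 and 15 of 29) were also mostly lower or not called from 6000 to under 12000 UMIs. Genes that replicate and transcribe mitochondrial DNA were no longer mostly lower among those called, with 5 higher and 3 lower of 28 in that range. From 3000 to under 6000 UMIs 0 of 10 were called. Their medians stayed below 0, at -0.13 and -0.31 in these ranges. Btf3 differed by -1.43 and -1.32 in the higher and lower of these depth ranges, Sec61b by -1.20 and -1.23, and Malat1 by 0.44 and 0.75. Lars2 differed by 0.45 (edgeR adjusted p = 0.001473) from 6000 to under 12000 UMIs and by 0.38 (edgeR adjusted p = 0.1013) from 3000 to under 6000 UMIs.

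Genes of the cell cycle and of the ER went from lower or mixed to higher. Of 54 G2/M genes 7 were higher and 31 lower in the full comparison (median -0.40), but 42 higher and 0 lower from 6000 to under 12000 UMIs (median 0.72). Birc5, an inhibitor of apoptosis needed in mitosis, went from -1.10 to 0.40. Of 44 S phase genes 1 was higher and 28 lower in the full comparison (median -0.44), against 14 higher and 0 lower in that range (median 0.26). Genes of the unfolded protein response, which adjusts the folding capacity of the ER, showed 4 higher and 7 lower of 20 in the full comparison (median -0.16). They showed 10 higher and 0 lower of 20 from 6000 to under 12000 UMIs (median 0.52) and 17 higher and 0 lower of 18 from 3000 to under 6000 UMIs (median 1.17). Creld2, an ER chaperone, went from -0.64 to 0.64 and 1.12. The summed share of this list was 0.793% to 1.40% of UMIs in barcodes of 20% to under 40%, against 0.356% to 0.432% in all low-mitochondrial barcodes and 0.171% to 0.286% in low-mitochondrial barcodes of 1000 to under 6000 UMIs. A larger share there was not particular to this list. Surface membrane genes held 2.27% to 3.82% against 1.13% to 1.25% in all low-mitochondrial barcodes, and T cell identity genes 1.78% to 2.60% against 1.09% to 1.25%. Cytoskeletal genes held less, at 2.56% to 3.34% against 5.59% to 6.65%.

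Heat shock genes lost their difference, with 2 higher and 2 lower of 16 from 6000 to under 12000 UMIs (median 0.02) and 0 and 2 of 13 from 3000 to under 6000 UMIs (median -0.11). Genes of the ATF4 response turned, with 10 higher and 3 lower of 25 (median 0.27) and 4 and 1 of 22 (median 0.16) in these ranges. Effector genes showed 4 higher and 9 lower of 27 from 6000 to under 12000 UMIs (median -0.22), and 6 higher and 2 lower of 22 from 3000 to under 6000 UMIs (median 0.30). In the former range p53 targets showed 2 higher and 5 lower of 17, BCL2 family genes 1 and 5 of 15, and caspase and death genes 0 and 6 of 30.

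Memory, interferon and immediate early genes went from higher or mixed to mostly lower or not called. Of 20 tested memory and stem-like genes 3 were higher and 11 lower from 6000 to under 12000 UMIs (median -0.76). Tcf7 was lower by -1.86 (edgeR adjusted p = 7.914e-13) and Il7r by -0.998 (edgeR adjusted p = 0.004965). Interferon response genes showed 10 higher and 8 lower of 37 in the full comparison (median 0.05), but 0 higher and 25 lower of 32 in that range (median -0.82). Ifi47, an interferon-inducible GTPase, differed by -0.74 and -1.43. Immediate early genes showed 0 higher and 6 lower of 23 (median -0.17). Gzmb went from -1.20 to 0.52 (edgeR adjusted p = 0.005403) and to 1.03 from 3000 to under 6000 UMIs. BE692007 and Ikzf2, among the largest rises of the full comparison, were lower by -0.66 and -0.41 from 6000 to under 12000 UMIs.

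Under library totals, the full comparison gave medians of 0.13 for G2/M, 0.09 for S phase and 0.38 for the unfolded protein response, above 0 but below the shift of 0.58 of all genes.

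The matched comparisons differed in size. From 3000 to under 6000 UMIs they held 192, 240, 91 and 87 high-mitochondrial barcodes and fewer low-mitochondrial ones in each library, with 37 in butyrate 2. From 6000 to under 12000 UMIs they held 210, 261, 62 and 87 high-mitochondrial and 381, 530, 309 and 338 low-mitochondrial barcodes. Shallow low-mitochondrial barcodes differed from the rest of their class: from 1000 to under 6000 UMIs, where there were 108, 114, 69 and 55, the G2/M share was 0.480%, 0.488%, 0.430% and 0.360% of UMIs against 1.14%, 1.12%, 0.711% and 0.708% from 6000 UMIs. The G2/M share of all high-mitochondrial barcodes was 1.16%, 1.19%, 0.691% and 0.665%. In each library this lay nearer to the deep than to the shallow low-mitochondrial barcodes.

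**Figure D4:**
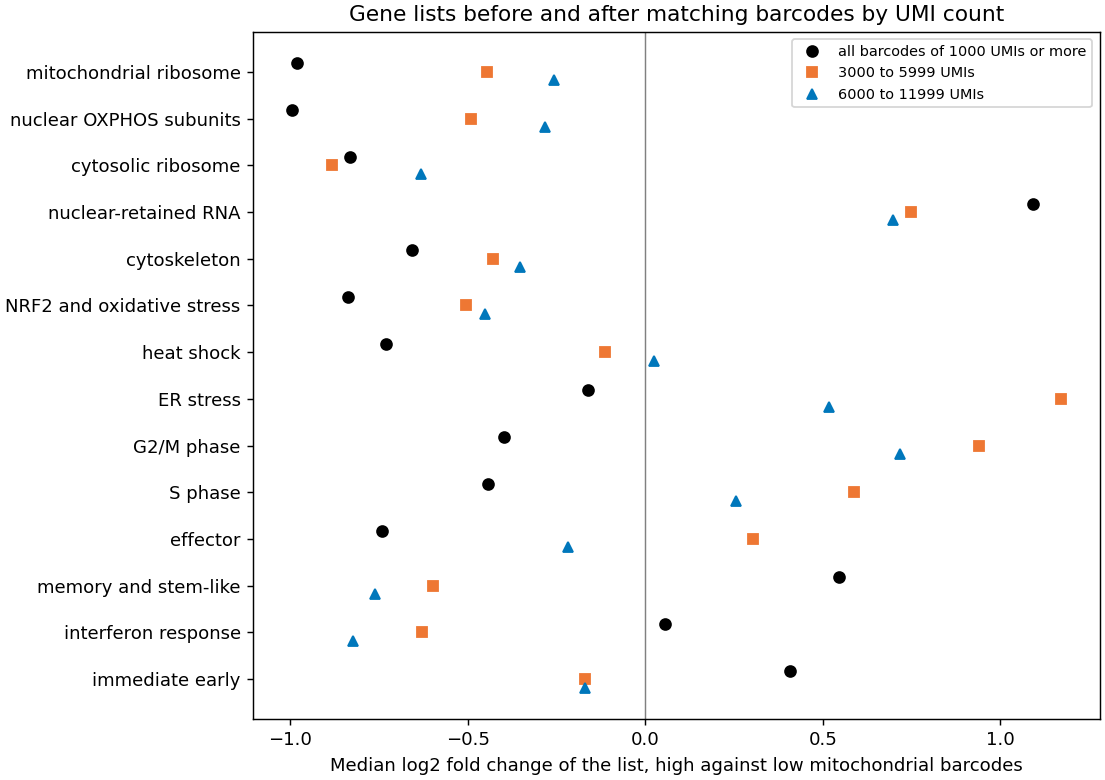
Median log2 fold change of 14 gene lists between high- and low-mitochondrial barcodes, for all barcodes with at least 1000 UMIs (circles), those of 3000 to under 6000 UMIs (squares) and those of 6000 to under 12000 UMIs (triangles). Ribosomal, OXPHOS and nuclear RNA lists keep their side of 0, while ER stress, G2/M, S phase, memory, interferon and immediate early lists cross it.

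The makeup of the mitochondrial RNA itself also differed between classes. These shares are a description within the mt- genes and were not tested. mt-Co3, a cytochrome c oxidase subunit, was the most abundant mt- gene in both classes, at 23.3% to 23.7% of mitochondrial UMIs in high- and 23.0% to 23.4% in low-mitochondrial barcodes. mt-Atp6, a subunit of ATP synthase, made up 18.0%, 17.6%, 18.2% and 17.8% against 16.2%, 16.3%, 16.2% and 15.9%. mt-Nd1, a complex I subunit, made up 5.83%, 5.94%, 5.45% and 5.22% against 7.14%, 7.21%, 7.06% and 6.79%. Neither mt-Atp6 nor mt-Nd1 overlapped between the classes.

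Gene expression differed between butyrate and control within the high-mitochondrial barcodes. Of 9793 genes tested with edgeR, 1223 were higher (12.5%) and 1138 lower (11.6%) with butyrate, 24.1% in all. Library totals in place of TMM moved the median over all genes from -0.01 to -0.15 and the calls to 825 higher and 1617 lower. Within the low-mitochondrial barcodes, 36.2% of 13494 genes were higher and 35.7% lower, 71.9% in all, and library totals gave 3338 higher and 6814 lower. Of the 2361 genes called in high-mitochondrial barcodes, 2205 (93.4%) were also called in low-mitochondrial barcodes, which is 29.8% of the low calls among the genes tested in both. Of these, 2185 had the same sign and 20 the opposite. The high-mitochondrial sums held 960772 to 3971192 UMIs and the low-mitochondrial sums 49319978 to 66770647 UMIs. Leaving out control replicate 1 gave 777 higher and 756 lower genes, and leaving out butyrate replicate 2 gave 791 and 689.

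Effector molecules and cytokines were among the largest rises with butyrate. Mt3, a metallothionein that binds zinc and copper, went from 4.78 and 5.85 CPM in control 1 and 2 to 356 and 281 CPM in butyrate 1 and 2 (log2 5.87, SE 0.21, edgeR adjusted p = 7.451e-17). Il10, an anti-inflammatory cytokine, rose from 0.638 and 0.975 CPM to 52.96 and 38.2 CPM (5.68), on 2 and 4 UMIs in the control sums. Gzmk, a granzyme, rose from 1.28 and 1.22 to 46.5 and 61.5 CPM (5.39), and the chemokine Ccl4 from 3.19 and 3.17 to 136 and 116 CPM (5.29). Prf1 rose from 24.9 and 31.0 to 762 and 845 CPM (4.84), and Lta, lymphotoxin alpha, from 36.4 and 29.5 to 779 and 655 CPM (4.45). The rule for naming asked for groups that do not overlap. Of 26 tested effector genes 15 were higher and 3 lower (median log2 2.10, all genes -0.01). Gzmb rose by 1.85 (edgeR adjusted p = 0.008314) and Cdkn1a by 2.25 (edgeR adjusted p = 3.635e-11). At 500 UMIs, Gzmb was detected in 39.0% ± 3.99 of control and 78.0% ± 3.09 of butyrate high-mitochondrial barcodes (SD, n = 2 each, two-sided exact permutation p = 0.333).

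Genes of the G2/M, interferon and glycolysis lists were more often lower than higher with butyrate in these barcodes. Fads2, a fatty acid desaturase, went from 57.1 and 57.3 to 4.32 and 5.59 CPM (log2 -3.50, SE 0.31, edgeR adjusted p = 3.839e-09), and Scd1, another desaturase, from 31.9 and 42.7 to 3.24 and 7.45 CPM (-2.76). Aldoc, a glycolytic aldolase, went from 67.3 and 53.4 to 5.40 and 8.39 CPM (-3.09). The interferon-inducible genes Ifi206, Slfn1 and Ifi214 differed by -3.01, -2.72 and -2.70. Tcf7 went from 63.8 and 52.2 to 14.1 and 9.32 CPM (-2.32, SE 0.27, edgeR adjusted p = 3.843e-07). Of 54 G2/M genes 41 were lower and 0 higher (median -0.83), of 30 interferon genes 15 lower and 5 higher (median -0.65), and of 29 glycolysis and hypoxia genes 15 lower and 2 higher (median -0.51). Of the lists that set the classes apart, 8 of 83 cytosolic ribosomal genes were higher and 1 lower (median 0.21), and 3 of 10 nuclear-retained RNAs higher and 1 lower (median 0.02). Under library totals these became 2 higher and 4 lower for the ribosomal list and 3 and 3 for the nuclear list, whereas effector (median 1.96), G2/M (-0.97), interferon (-0.79) and glycolysis (-0.65) genes did not turn. Malat1 rose by 0.82 (edgeR adjusted p = 0.002291). The edgeR adjusted p went to 0.121 when control replicate 2 was left out and to 0.1553 when butyrate replicate 1 was.

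**Figure D5:**
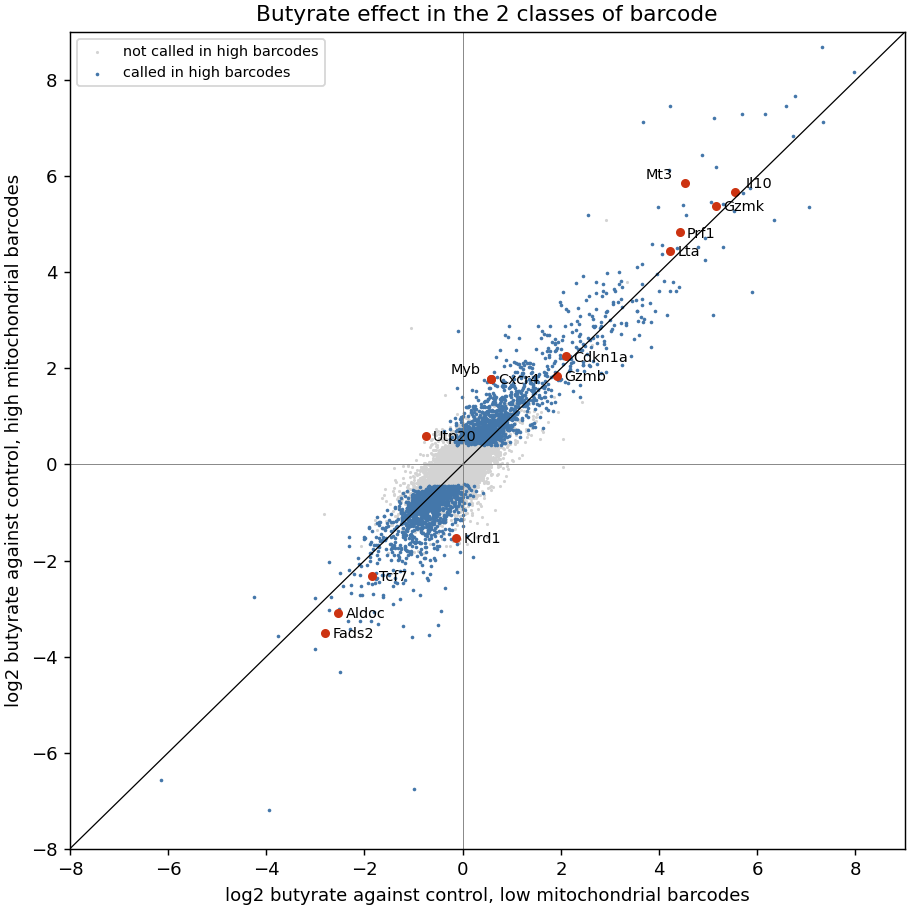
Log2 fold change of butyrate against control in low-mitochondrial (x axis) and high-mitochondrial (y axis) barcodes for each gene tested in both, with genes called in the high-mitochondrial barcodes in blue, 14 named genes in red and the line of equality in black. Mt3, Prf1 and Lta lie far up and Fads2 and Tcf7 far down on both axes, and Klrd1 and Utp20 lie off the line.

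Whether the butyrate effect differed between classes was tested directly as a class by treatment term. Of 13239 genes, 75 had a more positive effect in high-mitochondrial barcodes (0.567%) and 42 a more negative one (0.317%), 0.884% in all, by edgeR at an adjusted p under 0.05. At an unadjusted p under 0.05 there were 1548 genes, and DESeq2 called 3 and 22 while giving no adjusted p for 11037 genes. Myb, a transcription factor of progenitor and memory cells, rose by 1.77 (SE 0.19) with butyrate in high-mitochondrial and by 0.57 (SE 0.06) in low-mitochondrial barcodes, a difference of 1.21 (SE 0.20, edgeR adjusted p = 4.242e-06). Cxcr4 rose by 1.78 and 0.58, a difference of 1.20 (SE 0.18, edgeR adjusted p = 2.641e-07). Its CPM in this fit was 29.0, 21.6, 97.2 and 75.5 in the high-mitochondrial sums, with both butyrate values above both control values. Klrd1, an NK receptor chain also made by CD8+ T cells, stood at 445, 274, 122 and 127 CPM in the high-mitochondrial and 296, 289, 238 and 297 CPM in the low-mitochondrial sums of control 1, control 2, butyrate 1 and butyrate 2. The difference of its effects was -1.36 (SE 0.18, edgeR adjusted p = 1.387e-10). This call was lost under library totals (-1.29, edgeR adjusted p = 0.2641) and without the library block (-1.39, edgeR adjusted p = 0.2072). At like depth neither Myb nor Klrd1 kept its call: from 6000 to under 12000 UMIs the differences were 0.43 (edgeR adjusted p = 0.6946) and -0.0897 (edgeR adjusted p = 0.9404), and from 1000 to under 6000 UMIs they turned to -0.0765 and 0.10. Cxcr4 kept its call from 6000 to under 12000 UMIs (1.28, edgeR adjusted p = 0.005901). It did not from 1000 to under 6000 UMIs (0.92, edgeR adjusted p = 0.8727) or without the library block (1.21, edgeR adjusted p = 0.2151). Without butyrate replicate 1 its difference was 0.74. The number of such genes depended on the settings: leaving out 1 library gave 15 to 21 more positive and 6 to 92 more negative genes, and a mitochondrial limit of 8% gave 442 and 318.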

How the data were processed

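Counts of UMIs for 32285 genes were deposited for every barcode, before any filter on cells. Cell Ranger 4, Seurat 4.3 and mm10 are named in the submitters' processing notes. The annotation release is not given in the sources used. All members, gene lists and naming rules were chosen with earlier results of these data known.

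Barcodes were classed by total UMIs (1000) and mitochondrial percent (10). No doublet caller was run. UMIs outside the mt- genes were summed per library and class. The test was that of edgeR 4.0.16 under R 4.3.3 (TMM, filterByExpr, robust quasi-likelihood F test, Benjamini-Hochberg adjustment). The library was a block between classes, and treatment was the only term within a class. DESeq2 1.42.0 was an alternative. Python 3.11.15 did the rest. The replicate number stands for the mouse, per the labels. Deviations of same-mouse cultures correlated across genes at 0.316 (high) and 0.190 (low) by Pearson, and at 0.302 and 0.0747 by Spearman. With 2 cultures per group, the p-values use a spread estimated over all genes together. On simulated counts, 77.7% of genes changed by 1 log2 unit and 97.9% of those changed by 2 were recovered for butyrate in high-mitochondrial barcodes, with 9642 genes tested. Those counts varied less between libraries than the data, where the common coefficient of variation in this test was 0.0978. Only genes above a minimum level were changed, so these percentages do not give the recovery in the data.

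Named genes were the 10 largest rises and falls between classes and the 6 largest for each treatment test, among called genes averaging 20 CPM or more with the same sign in all libraries (no overlap between groups for treatment), without predicted genes and receptor segments, plus up to 4 genes per list and a fixed set. Coordinates and lengths came from GENCODE M21 (GRCm38), which held 32158 of the gene IDs. Reads of close paralogues were not resolved.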

Additional observations from a re-analysis of the deposited data

Results flagged for a closer look

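In 12 named genes the butyrate effect differed between high- and low-mitochondrial barcodes by the class by treatment test in edgeR (adjusted p under 0.05). Values are the log2 effect in high- minus that in low-mitochondrial barcodes. The effect was more positive in high-mitochondrial barcodes for Utp20 (1.37), Mt3 (1.35), Myb (1.21), Cxcr4 (1.20), Batf3 (1.17) and Rrp12 (1.13). It was more negative for Klrd1 (-1.36), Trappc3 (-1.18), Hist1h2ac (-1.11), Timm21 (-1.06), Ska1 (-1.03) and Plgrkt (-1.01). Most of these calls ended at like depth: from 6000 to under 12000 UMIs 1 of the 12 kept its call, 8 lost it and 3 turned. Without the library block 7 lost it. DESeq2 kept the call for 3 and gave no adjusted p for the other 9. The high-mitochondrial sums behind several of these were small. Trappc3 rested on 24 and 14 UMIs and Timm21 on 15 and 10 UMIs in the butyrate libraries, and Rrp12 on 35 and 38 UMIs. Utp20 was called in low-mitochondrial barcodes (-0.75, edgeR adjusted p = 0.01041) and not in high-mitochondrial barcodes (0.60, edgeR adjusted p = 0.1312).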

How the results depend on the processing

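Between classes, scaling by library totals gave 6978 higher and 1455 lower genes, no library block 1362 and 2366, barcodes of 1000 to under 6000 UMIs 766 and 978, of 3000 to under 6000 UMIs 584 and 752 and of 6000 to under 12000 UMIs 1219 and 1637, and barcodes of 40% or more 718 and 1949. For butyrate in high-mitochondrial barcodes, DESeq2 gave 576 higher and 355 lower, leaving out a library 777 to 878 and 689 to 897, mitochondrial limits of 8%, 15% and 20% 2210 and 2170, 426 and 333, and 258 and 221, barcodes of 1000 to under 6000 UMIs 529 and 521, of 3000 to under 6000 UMIs 353 and 301, and of 40% or more 43 and 38. In low-mitochondrial barcodes of 1000 to under 6000 UMIs the counts were 436 and 402. For the class by treatment difference, library totals gave 167 more positive genes, DESeq2 3 and 22, no filter 22 more negative, leaving out a library 15 to 21 and 6 to 92, limits of 8%, 15% and 20% 442 and 318, 15 and 6, and 7 and 16, the OrdMag limit 67 more negative, barcodes of 1000 to under 6000 UMIs 5 and 7, of 3000 to under 6000 UMIs 3 and 1, of 6000 to under 12000 UMIs 41 and 26, of 10% to under 20% 183 and 133, and of 40% or more 0 and 105. The cause of these shifts was not tested, and sets with fewer UMIs had fewer genes or UMIs to test. A fit that leaves out a library assumes that the lone library varies like the others.

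With the mouse as a replicate block, butyrate in high-mitochondrial barcodes gave 1666 higher and 1601 lower genes. It kept all 2361 genes called without the block and added 906. For the class by treatment difference, the fit without the block gave 28 and 8.

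Named genes turned between classes as follows, in log2. In barcodes of 1000 to under 6000 UMIs these were Cd8b1 (0.022), Gzmb (0.86), Prf1 (0.73), Tcf7 (-1.53), Il7r (-0.047), Cdkn1a (0.19), Creld2 (1.01) and Birc5 (0.039). From 3000 to under 6000 UMIs these were BE692007 (-0.38), Snhg20 (-0.061), Gzmb (1.03), Prf1 (0.72), Tcf7 (-1.97), Il7r (-0.60), Cdkn1a (0.29), Hsp90aa1 (0.16), Creld2 (1.12) and Birc5 (0.40). From 6000 to under 12000 UMIs these were BE692007 (-0.66), Ikzf2 (-0.41), Zbtb20 (-0.30), Cd8a (-0.24), Gzmb (0.52), Tcf7 (-1.86), Il7r (-0.998), Cdkn1a (0.12), Hsp90aa1 (0.28), Creld2 (0.64) and Birc5 (0.40). Under library totals these were B2m (0.27), Cd8b1 (0.45), Prf1 (0.15), Cdkn1a (0.033) and Bbc3 (0.53). Under other settings, Cd8a was at -0.016 (OrdMag) and -0.40 (40% or more), Cd8b1 at 0.082 and 0.24 (limits of 15% and 20%), Prf1 at 0.14 (limit of 20%), Pmaip1 at -0.53 (40% or more), and Tcf7 at -0.038 (3000 UMIs or more) and -0.14 (OrdMag). Bbc3, near 0, was at 0.0725 by DESeq2, 0.068 with no block, 0.15 (limit of 15%), 0.010 (without barcodes of 50% or more), 0.060 (10% to under 20%), 0.0084 (low class of at least 2%) and -0.045 to 0.077 when a library was left out. Tcf7 ranged from -0.046 to 0.23 when a library was left out, the lowest without control replicate 1.

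The class by treatment difference turned for Utp20 (-0.14 from 6000 to under 12000 UMIs, -0.12 at 40% or more), Mt3 (-0.21 and -0.089 from 1000 and from 3000 to under 6000 UMIs), Myb (-0.0765 from 1000 to under 6000 UMIs), Batf3 (-0.31 at a limit of 20%, then -0.78, -0.39 and -0.48 in the 3 UMI ranges), Rrp12 (-0.11 from 6000 to under 12000 UMIs), Klrd1 (0.10 and 0.68) and Plgrkt (0.17 and 0.36 from 1000 and from 3000 to under 6000 UMIs). Of the named gene values between classes, 781 kept direction and side of the threshold, 59 lost the threshold, 9 gained it and 51 turned. For the class by treatment difference 133 kept both, 82 lost the threshold and 14 turned. Leaving out a library moved the butyrate difference in Cd8 detection over -5.16 to 3.52 points, in median ribosomal share over -4.45 to 3.35 points (0.0556 at 900 UMIs with all libraries), and in the high-mitochondrial share from 3000 to under 6000 UMIs over -5.89 to 0.188 points.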
